A study of Mus musculus with 12 samples.

Results

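The 32 genes described here belong to the endoplasmic reticulum stress response, also called the unfolded protein response, and were chosen by their symbols from a list of its sensors, transcription factors, chaperones, degradation factors and stress targets. All 32 of 32 had a probe on the array, out of 18266 gene symbols tested, and all 32 had at least 1 probe well above background in every mouse. Hypothalamus RNA came from 12 male mice aged 6 to 7 weeks by their labels, with 3 mice in each group. The wild-type control group (WT) and the Asmt-knockout control group (KO) were left untrained, while the wild-type exercise group (exercised WT) and the Asmt-knockout exercise group (KE) were trained in a swimming program. The KO and KE mice were homozygous for a CRISPR/Cas9 deletion of 20 bp in Asmt, which encodes the enzyme of the last step of melatonin synthesis. The founders, made in C57BL/6 zygotes, had been backcrossed to wild-type littermates for 3 generations, and the WT and exercised WT mice were wild-type littermates. According to the methods, 6 to 7 weeks was the age at which swimming began, so that the labelled age may precede the collection of tissue.

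The endoplasmic reticulum folds proteins that a cell secretes or places in its membranes. When unfolded proteins accumulate there, the chaperone BiP, encoded by Hspa5, leaves the membrane sensors IRE1 (Ern1), PERK (Eif2ak3) and ATF6 (Atf6), which then signal to the nucleus. IRE1 splices the Xbp1 message, cleaved ATF6 enters the nucleus and PERK phosphorylates eIF2alpha, which favours translation of Atf4. The 3 branches raise chaperones, degradation factors and, through Atf4, a set of stress targets that includes Ddit3. Hypothalamic neurons that secrete peptide hormones carry a heavy load of secretory protein. These arrays measured messages only and could not see splicing of Xbp1, cleavage of ATF6 or phosphorylation of eIF2alpha.

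Binding motifs of this response stand close to the start sites of many of the 32 genes, and a few are printed to show what the group shares in sequence. Upstream sequence of 250 bases was found in RefSeq (build GRCm38.p6) for 28 of the 32 genes, all but Hyou1, Manf, Derl1 and Atf6. Both strands were searched for 4 motifs. The ER stress response element (ERSE), a motif of ATF6 with NF-Y, was taken as CCAAT, any 9 bases and CCACG. ERSE-II was taken as ATTGG, any 1 base and CCACG. The unfolded protein response element (UPRE) was taken as TGACGTGA or TGACGTGG, and the C/EBP-ATF response element (CARE), a motif of ATF4, as TGATGNAA. ERSE and ERSE-II share the letters CCACG, but no matches overlapped in these windows. ERSE was present in 9 of the 28 genes (Hspa5, Hsp90b1, Dnajc3, Calr, Canx, Creld2, Pdia6, Syvn1 and Derl3) and in 0.13% of the 27025 genes with a RefSeq window. ERSE-II was present in Herpud1 alone among the 28, against 0.037% of all genes, and UPRE in Hspa5 alone, against 1.01%. CARE was present in 4 of the 28 (Herpud1, Atf3, Chac1 and Asns), against 3.91% of all genes. A match of letters is not a shown binding site, and many of these genes are where the motifs were first defined. The 5 windows below belong to genes whose values are given in detail, with capitals for the fixed letters of each motif.
Hspa5 (chr2:34771840-34772089, plus strand): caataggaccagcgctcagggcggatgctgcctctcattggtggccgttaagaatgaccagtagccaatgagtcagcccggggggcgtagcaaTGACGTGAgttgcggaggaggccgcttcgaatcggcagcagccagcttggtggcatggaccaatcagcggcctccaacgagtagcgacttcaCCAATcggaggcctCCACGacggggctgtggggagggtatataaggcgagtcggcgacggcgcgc
Dnajc3 (chr14:118937682-118937931, plus strand): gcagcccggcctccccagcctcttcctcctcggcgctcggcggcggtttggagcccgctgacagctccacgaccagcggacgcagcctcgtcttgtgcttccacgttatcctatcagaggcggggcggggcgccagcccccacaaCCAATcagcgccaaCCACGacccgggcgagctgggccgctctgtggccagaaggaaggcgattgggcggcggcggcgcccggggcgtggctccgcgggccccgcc
Creld2 (chr15:88819396-88819645, plus strand): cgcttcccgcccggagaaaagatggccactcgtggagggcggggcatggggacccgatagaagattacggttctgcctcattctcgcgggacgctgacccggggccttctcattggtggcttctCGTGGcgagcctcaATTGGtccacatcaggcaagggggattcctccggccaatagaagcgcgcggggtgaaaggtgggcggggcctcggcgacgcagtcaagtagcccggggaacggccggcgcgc
Herpud1 (chr8:94386179-94386428, plus strand): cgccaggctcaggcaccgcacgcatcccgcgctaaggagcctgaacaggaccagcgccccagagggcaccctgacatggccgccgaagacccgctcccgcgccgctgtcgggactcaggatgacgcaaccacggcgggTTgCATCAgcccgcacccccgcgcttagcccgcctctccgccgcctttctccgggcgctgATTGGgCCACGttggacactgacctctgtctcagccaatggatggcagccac
Asns (chr6:7693210-7693459, minus strand): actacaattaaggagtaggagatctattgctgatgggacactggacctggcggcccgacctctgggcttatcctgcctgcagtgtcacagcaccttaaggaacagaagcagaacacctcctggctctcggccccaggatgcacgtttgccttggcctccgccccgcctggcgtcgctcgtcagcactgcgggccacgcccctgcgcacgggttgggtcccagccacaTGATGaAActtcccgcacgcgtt
Each window is written 5′ to 3′ on the strand of its gene and ends 1 base before the start site. Hspa5 held UPRE from -157 to -150 and ERSE from -65 to -47, counted from the start site. Herpud1 held CARE on the other strand from -112 to -105 and ERSE-II from -52 to -42, and Asns held CARE from -23 to -16.

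Hybridization used 2 slides. All WT mice and KO replicates 1 and 2 were on slide 1, whereas KO replicate 3 and every exercised mouse were on slide 2. Hence no slide held both WT and exercised WT mice. Values called blocked come from a second fit with the slide as a block. Only the KO group lay on both slides, so blocked KO versus WT values compare KO replicates 1 and 2 with the WT mice. Blocked KE versus KO values likewise compare the KE mice with KO replicate 3 alone. On each array, 61.6% to 67.9% of the 59305 spots exceeded background clearly. No mouse had an Asmt signal well above background, with normalized log2 signals from 1.83 to 2.49, so that it could not check the genotype labels. All 12 markers of the hypothalamus were detected, and the summed log2 level of that list ran from 17.93 to 18.23 over the mice. Of 8 anterior pituitary genes, the hormone genes Gh, Prl, Fshb and Cga and the factor Pou1f1 were not well above background, and of 5 cortical and hippocampal genes Slc17a7 and Emx1 were not. In whole tissue, fewer cells of a type and less RNA per cell cannot be told apart.

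**Figure D1:**
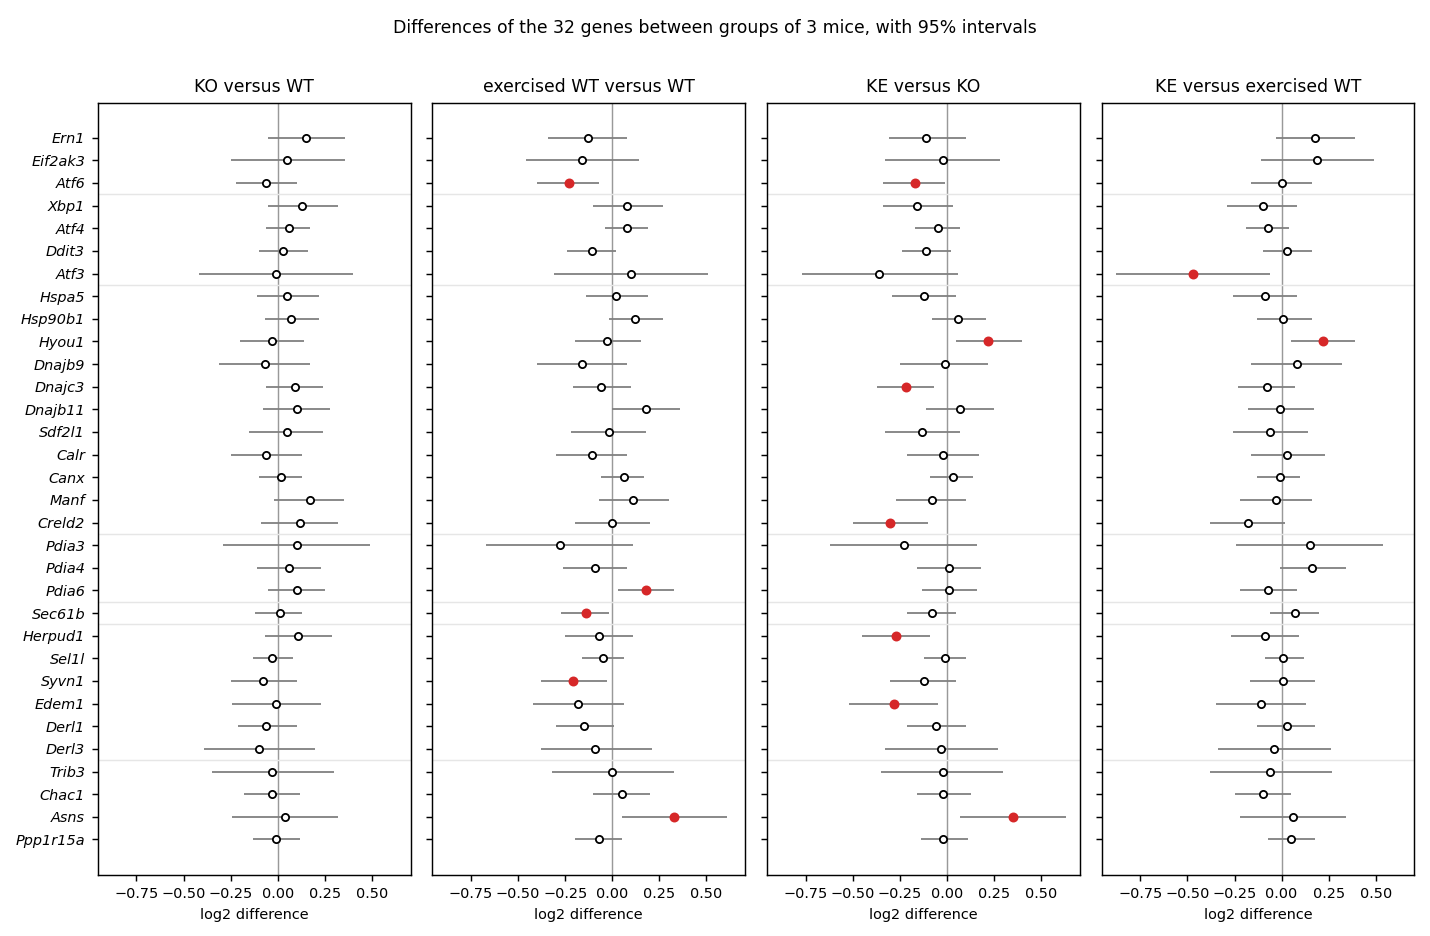
Log2 differences of the 32 genes (points, horizontal axis) with 95% intervals (lines) in 4 comparisons of 3 mice against 3, grouped by role from sensors at the top to stress targets at the bottom. Filled red points have an unadjusted p under 0.05, and none has an adjusted p under 0.05. The fitted values run from -0.47 for Atf3 in KE versus exercised WT to 0.35 for Asns in KE versus KO.

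None of the 32 genes passed the adjusted threshold in any comparison. With limma and Benjamini-Hochberg adjustment over all 18266 genes, 0% of genes and 0 of the 32 passed 0.05 after adjustment in each of the 4 pairs of groups (KO against WT, KE against KO, exercised WT against WT and KE against exercised WT) and for the swimming by genotype interaction. In that order, the smallest adjusted p among the 32 was 0.85, 0.156, 0.111, 0.733 and 0.62. Without the slide block, no fitted difference reached 0.5 on the log2 scale. In the blocked fit Atf3 alone passed it, at 0.53 in exercised WT versus WT and -0.60 for the interaction. Taken gene by gene and without the slide block, the 95% intervals of the 32 genes reached no further than a 1.4-fold, 1.7-fold, 1.59-fold and 1.84-fold difference in the 4 pairs of groups, and a 2.06-fold difference for the interaction. These limits make no allowance for the slide, which nearly coincided with exercise. In the blocked fit the intervals reached 1.52-fold, 1.65-fold, 2.34-fold and 1.81-fold in the same order, and 2.26-fold for the interaction. Differences below are given as values, and an unadjusted p under 0.05 only marks the genes that ranked first.

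Knockout without exercise came with the smallest differences. In KO versus WT, 0 of the 32 genes had an unadjusted p under 0.05 in either direction, where 2.63% of all genes did so upward and 2.69% downward. The median of the 32 log2 differences was 0.03, with a range from -0.10 to 0.17, beside a median of -0.01 over all genes. Fitted values were above 0 in 19 of the 32 genes (59.4%), against 46.3% of all genes. By role, 8 of 11 chaperones lay above 0, and 5 of 6 degradation factors lay below it. In the blocked fit, here KO replicates 1 and 2 against WT, 26 of the 32 genes (81.2%) lay above 0, against 52.3% of all genes. Only 1 of the 6 degradation factors lay below 0 in that fit. KO replicate 2 was the highest KO mouse in 20 of the 32 genes. The endothelial markers parted these groups, with summed log2 levels of 12.86 to 12.93 in WT and 12.57 to 12.75 in KO mice and 2 of 6 genes past an unadjusted p of 0.05. The 7 cytosolic heat shock genes also parted them, with sums of 16.61 to 16.73 in WT and 16.77 to 16.89 in KO mice. Their median difference was 0.20, with 0 of 7 past that p. The part of both lists in the values was not tested.

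Exercise in knockout mice came with more low values. In KE versus KO, 2 genes (Hyou1 and Asns) had an unadjusted p under 0.05 on the higher side, against 7.40% of all genes, and 5 (Herpud1, Creld2, Dnajc3, Edem1 and Atf6) on the lower side, against 12.3%. The median difference of the 32 was -0.05, beside -0.04 over all genes. Fitted values were below 0 in 25 of the 32 genes (78.1%), against 59.5% of all genes. All 6 degradation factors, all 3 sensors and all 4 transcription factors were among them, from -0.01 for Sel1l to -0.36 for Atf3. So were 7 of 11 chaperones, 1 of 3 oxidoreductases and 3 of 4 stress targets. In the blocked fit 22 of the 32 (68.8%) were below 0, against 51.9% of all genes. In the blocked fit, against KO replicate 3 alone, the sensors lay between -0.07 and -0.02 and the transcription factors between -0.13 and -0.03. Of the 6 degradation factors, 4 (Sel1l, Syvn1, Derl1 and Derl3) lay above 0 in that fit. Of 7 cytosolic heat shock genes, all detected, 3 had an unadjusted p under 0.05, with summed log2 levels of 16.77 to 16.89 in KO and 16.51 to 16.68 in KE mice. The 10 immediate early genes summed to 13.03 to 13.64 in KO and 12.92 to 12.99 in KE mice, with 2 past that p. The part of both lists in the values was not tested.

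Exercise in wild-type mice gave 2 genes with an unadjusted p under 0.05 on the higher side (Pdia6 and Asns), against 9.86% of all genes, and 3 on the lower side (Atf6, Syvn1 and Sec61b), against 15.9%. The median of the 32 in exercised WT versus WT was -0.05, as it was over all genes. Fitted values were below 0 in 20 of the 32 genes (62.5%), against 60.8% of all genes. Again all 6 degradation factors and all 3 sensors were among them, whereas 3 of 4 transcription factors and 3 of 4 stress targets lay above 0. In the blocked fit the direction of the degradation factors reversed, with all 6 above 0. The sensors were at -0.17 for Eif2ak3, -0.08 for Ern1 and 0.00 for Atf6. Of the 12 hypothalamus markers, 6 had an unadjusted p under 0.05 here, with a median difference of -0.18, summed levels of 18.10 to 18.16 in WT and 17.94 to 18.23 in exercised WT mice, and a part in the values that was not tested. The endothelial list summed to 12.86 to 12.93 in WT and 12.62 to 12.74 in exercised WT mice, with 2 of 6 genes past that p, and the 3 blood genes to 15.70 to 16.02 and 15.34 to 15.67, with 0 past it. Of 6 microglial genes 3 were past it, with overlapping sums of 13.00 to 13.04 and 12.99 to 13.10. The part of these lists was not tested either. The KE versus KO and exercised WT versus WT values share no mice, but in both comparisons the exercised mice lay on slide 2.

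Among exercised mice, all on slide 2, the knockout differed little from the wild type. In KE versus exercised WT, Hyou1 alone had an unadjusted p under 0.05 on the higher side, against 2.79% of all genes, and Atf3 alone on the lower side, against 3.96%. The median of the 32 was 0.00, as it was over all genes. The choroid plexus list (7 of 7 genes detected) summed to 12.09 to 12.17 in KE and 12.19 to 12.47 in exercised WT mice, and the striatal list to 12.75 to 12.80 and 12.81 to 13.57, with 2 of 7 striatal genes past an unadjusted p of 0.05; their part in the values was not tested. For the interaction, which asks whether swimming differed between genotypes, Hyou1 alone was past p of 0.05 on the higher side, against 3.79% of all genes, and Creld2 alone on the lower side, against 4.13%.

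The 3 sensors come first in the pathway. Ern1 encodes IRE1, a kinase and nuclease of the reticulum membrane. Its normalized log2 signals, in order of replicate number here and below, were 6.69, 6.57 and 6.67 in the WT mice, 6.86, 6.77 and 6.76 in the KO mice, 6.55, 6.64 and 6.35 in the exercised WT mice and 6.74, 6.82 and 6.52 in the KE mice. All KO mice lay above all WT mice, by 0.15 ± 0.09 (SE, n = 3 mice per group; adjusted p = 0.85, limma), whereas the KE and exercised WT mice overlapped at a difference of 0.18 ± 0.09 (adjusted p = 0.781, limma). The split of KO from WT mice held only in the average of the 3 probes used, and on each single probe these mice overlapped. The brightest probe differed by 0.02 in KO versus WT, and the 2 dimmer probes by 0.20 and 0.25. The exercised WT replicate 3 mouse was the lowest of the 12, and it carried the lowest value of 2 of the 3 Ern1 probes used, 3.79 and 9.23.

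Eif2ak3, which encodes PERK, read 7.17, 7.02 and 7.34 in the WT mice, 7.28, 7.17 and 7.24 in the KO mice, 6.92, 6.86 and 7.27 in the exercised WT mice and 6.94, 7.32 and 7.35 in the KE mice. Averaged over 2 probes, these groups overlapped in every comparison. The differences ran from -0.16 ± 0.14 in exercised WT versus WT to 0.19 ± 0.14 in KE versus exercised WT. In that average the spread within the exercised WT and the KE mice was as wide as any difference between groups. The probe at chr6:70814739-70814798 (mm9, plus strand) was dim, and well above background on 9 of the 12 arrays. It differed by -0.33 in exercised WT versus WT, where the other probe differed by 0.01. On the other probe all KE mice (9.73 to 9.79) lay above all exercised WT mice (9.53 to 9.66), by 0.17. The dim probe overlapped there, at 0.21.

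Atf6 encodes a sensor that is itself a transcription factor after cleavage. The Atf6 signals were 9.32, 9.37 and 9.42 in the WT mice, 9.45, 9.33 and 9.15 in the KO mice, 9.08, 9.18 and 9.14 in the exercised WT mice and 9.08, 9.18 and 9.14 in the KE mice. The equal entries for the exercised WT and KE mice come from rounding, and the unrounded values differ. The exercised WT mice all lay below the WT mice, by -0.23 ± 0.07 (adjusted p = 0.111, limma), and the KE mice lay below 2 of the 3 KO mice, at -0.17 ± 0.07 (adjusted p = 0.23, limma). KO replicate 3, untrained but on slide 2, read 9.15, within the range of the exercised mice. Fitted with a slide block, the differences were 0.00 ± 0.09 and -0.02 ± 0.07. The probe used lies at chr1:172637679-172637738 (mm9, minus strand). In the figure of single mice the split of Atf6 follows the slide in all 12 mice.

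**Figure D2:**
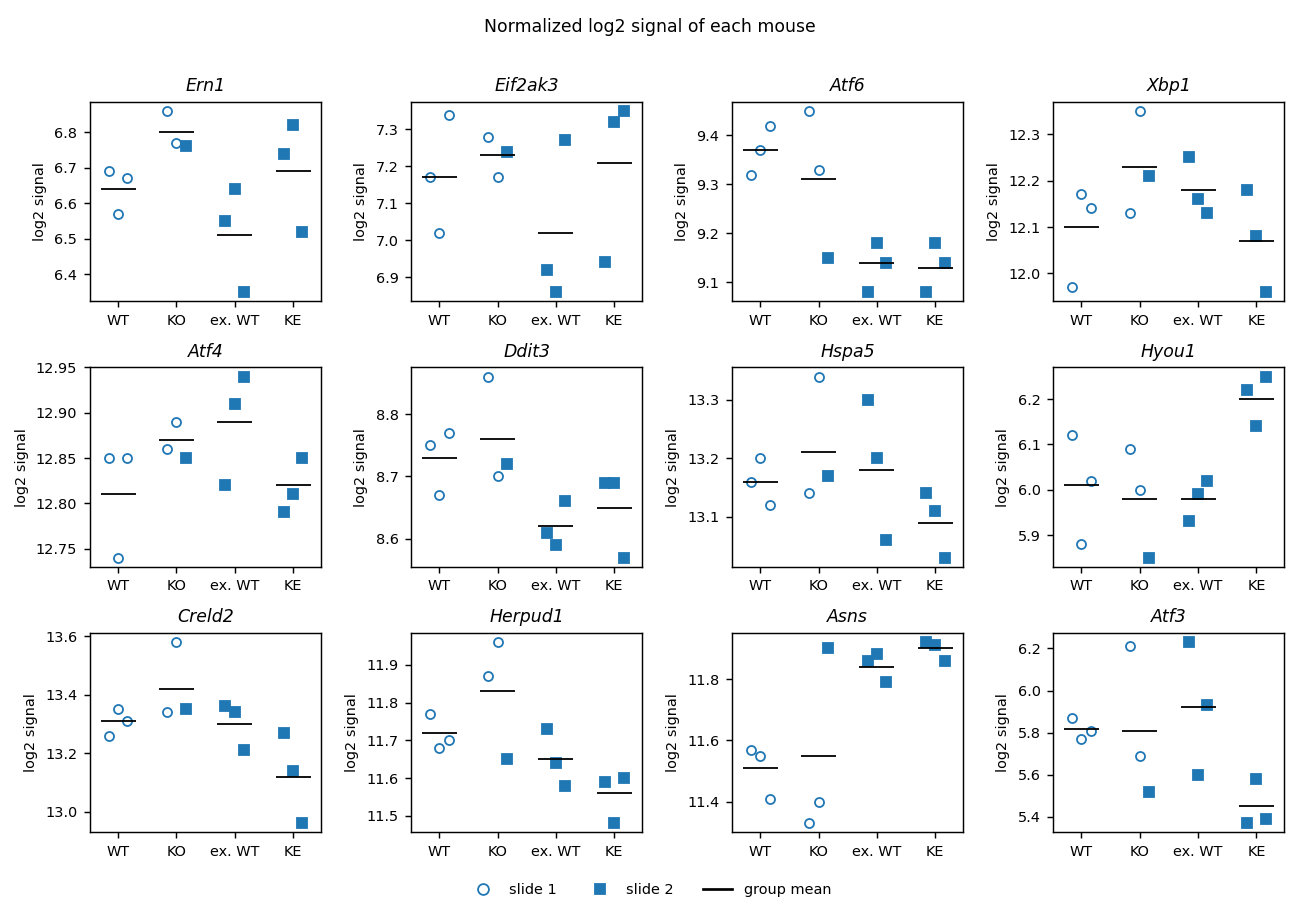
Normalized log2 signal of each mouse for 12 of the genes, by group, with exercised WT marked ex. WT, open circles for slide 1, filled squares for slide 2 and a black line for the group mean. For Atf6 and Asns the filled square among the KO mice (9.15 and 11.90) sits with the exercised mice, and for Hyou1 all KE mice (6.14 to 6.25) lie above the other groups.

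The transcription factors act downstream of the sensors, and Atf3 had the largest single difference of the 4. Xbp1, whose spliced message encodes the active factor of the IRE1 branch, read 11.97, 12.17 and 12.14 in the WT mice, 12.13, 12.35 and 12.21 in the KO mice, 12.25, 12.16 and 12.13 in the exercised WT mice and 12.18, 12.08 and 11.96 in the KE mice. KO and WT mice overlapped at 0.13 ± 0.08, and KE and KO mice overlapped at -0.16 ± 0.08. Its interaction value was -0.24 ± 0.12 (adjusted p = 0.648, limma), and all 3 Xbp1 probes gave a negative interaction, from -0.18 to -0.29.

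Atf4, the factor of the PERK branch, is controlled mostly at translation. Its message read 12.85, 12.74 and 12.85 in the WT mice, 12.86, 12.89 and 12.85 in the KO mice, 12.82, 12.91 and 12.94 in the exercised WT mice and 12.79, 12.81 and 12.85 in the KE mice. In the average of its 2 probes the groups overlapped throughout. Without the slide block, no difference between pairs of groups passed 0.08 on the log2 scale in either direction. The interaction was -0.13 ± 0.07 (adjusted p = 0.714, limma), and -0.14 ± 0.08 in the blocked fit. On the dimmer probe all exercised WT mice (10.47 to 10.51) lay above all WT mice (10.31 to 10.40), by 0.13. The brighter probe overlapped there, at 0.02.

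Ddit3 encodes CHOP, a factor linked to cell death under prolonged stress. Its signals were 8.75, 8.67 and 8.77 in the WT mice, 8.86, 8.70 and 8.72 in the KO mice, 8.61, 8.59 and 8.66 in the exercised WT mice and 8.69, 8.69 and 8.57 in the KE mice. The exercised WT mice lay just below all WT mice (-0.11 ± 0.06, adjusted p = 0.259, limma), and the KE mice just below all KO mice (-0.11 ± 0.06, adjusted p = 0.319, limma). Between KE and exercised WT mice the difference was 0.03 ± 0.06.

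Atf3, a stress-induced factor that also responds to neuronal activity, read 5.87, 5.77 and 5.81 in the WT mice, 6.21, 5.69 and 5.52 in the KO mice, 6.23, 5.60 and 5.93 in the exercised WT mice and 5.37, 5.58 and 5.39 in the KE mice. All KE mice lay below all exercised WT mice, by -0.47 ± 0.19 (a ratio of 0.721, adjusted p = 0.733, limma), the largest fitted difference of the 32 in that comparison. KO replicate 1 and exercised WT replicate 1 were the highest mice. Leaving out 1 mouse at a time moved the value between -0.63 and -0.31. The immediate early genes moved beside it: the summed log2 level of the 10 genes was 12.92 to 12.99 in KE mice and 13.10 to 13.44 in exercised WT mice, all 10 were detected, and 2 of the 10, Fosb at -0.73 and Egr1 at -0.66, had an unadjusted p under 0.05. Of 7 cytosolic heat shock genes, 4 were past that p, with summed levels of 16.51 to 16.68 in KE and 16.63 to 16.94 in exercised WT mice. Their part in the Atf3 value was not tested. In exercised WT versus WT, Atf3 was at 0.10 ± 0.19, and at 0.53 ± 0.31 in the blocked fit. Its interaction was -0.46 ± 0.26, and -0.60 ± 0.25 in the blocked fit.

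The chaperones bind folding proteins or assist BiP. Hspa5, the gene of BiP and the usual marker of the response, read 13.16, 13.20 and 13.12 in the WT mice, 13.14, 13.34 and 13.17 in the KO mice, 13.30, 13.20 and 13.06 in the exercised WT mice and 13.14, 13.11 and 13.03 in the KE mice. KO replicate 2 and exercised WT replicate 1 were the highest mice, and the groups overlapped in all comparisons. Its differences between pairs of groups ran from -0.12 ± 0.07 in KE versus KO to 0.05 ± 0.07 in KO versus WT, and its interaction was -0.14 ± 0.11.

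Hyou1 encodes a large chaperone that serves as a nucleotide exchange factor for BiP. Averaged over its 4 probes it read 6.12, 5.88 and 6.02 in the WT mice, 6.09, 6.00 and 5.85 in the KO mice, 5.93, 5.99 and 6.02 in the exercised WT mice and 6.22, 6.14 and 6.25 in the KE mice. Every KE mouse lay above every KO and every exercised WT mouse, at 0.22 ± 0.08 against KO (adjusted p = 0.184, limma) and 0.22 ± 0.08 against exercised WT (adjusted p = 0.733, limma). KO mice and WT mice overlapped at -0.03 ± 0.08. The KE versus KO value rested on 1 dim probe, at chr9:44193855-44193914 (mm9, plus strand), well above background on 9 of the 12 arrays. That probe differed by 0.79, and the others differed by -0.11, 0.12 and 0.10. Without it, when only probes detected on all 12 arrays were kept, the KE versus KO value was 0.03 and the KE versus exercised WT value 0.18, and neither had an unadjusted p under 0.05. In KE versus exercised WT all 4 probes were positive, from 0.10 to 0.35.

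Creld2 encodes a secreted protein of the reticulum that is a common target of ER stress. Its signals were 13.26, 13.35 and 13.31 in the WT mice, 13.34, 13.58 and 13.35 in the KO mice, 13.36, 13.34 and 13.21 in the exercised WT mice and 13.27, 13.14 and 12.96 in the KE mice. All KE mice lay below all KO mice, by -0.30 ± 0.09 (a ratio of 0.813, adjusted p = 0.157, limma), and KO replicate 2 was the highest of the 12. Exercised WT and WT mice overlapped at 0.00 ± 0.09, and the interaction was -0.30 ± 0.13 (adjusted p = 0.62, limma). Under the slide block the interaction was -0.33 ± 0.13 and the KE versus KO difference was -0.22 ± 0.13.

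Dnajc3, a co-chaperone of BiP that also restrains PERK, read 10.38, 10.52 and 10.58 in the WT mice, 10.56, 10.70 and 10.48 in the KO mice, 10.44, 10.41 and 10.46 in the exercised WT mice and 10.41, 10.34 and 10.32 in the KE mice. The KE mice lay below all KO mice, by -0.22 ± 0.07 (adjusted p = 0.159, limma), and narrowly below all exercised WT mice, by -0.08 ± 0.07. Blocking by slide gave -0.13 ± 0.09 in KE versus KO.

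Manf encodes a secreted factor that is retained by BiP. It read 11.61, 11.80 and 11.67 in the WT mice, 11.76, 11.90 and 11.92 in the KO mice, 11.91, 11.79 and 11.72 in the exercised WT mice and 11.92, 11.75 and 11.67 in the KE mice. Its KO versus WT difference of 0.17 ± 0.08 had the smallest unadjusted p of the 32 in that comparison (adjusted p = 0.85, limma), with KO replicate 1 inside the WT range.

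Dnajb11 and Dnajb9 encode J-domain co-chaperones that deliver proteins to BiP. Dnajb11 read 11.66, 11.89 and 11.84 in the WT mice, 11.79, 11.83 and 12.07 in the KO mice, 11.99, 11.97 and 11.96 in the exercised WT mice and 12.01, 11.95 and 11.95 in the KE mice. All exercised WT mice lay above all WT mice, by 0.18 ± 0.08 (adjusted p = 0.199, limma), but KO replicate 3, at 12.07, lay above the exercised mice as well. The slide block gave -0.08 ± 0.11. Dnajb9 read 9.47, 9.95 and 9.65 in the WT mice, 9.65, 9.65 and 9.55 in the KO mice, 9.46, 9.54 and 9.58 in the exercised WT mice and 9.58, 9.52 and 9.72 in the KE mice. Apart from WT replicate 2 the Dnajb9 mice spanned 9.46 to 9.72, and its interaction was 0.15 ± 0.15.

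Hsp90b1, the gene of GRP94, read 14.73, 14.90 and 14.93 in the WT mice, 14.86, 15.00 and 14.92 in the KO mice, 14.98, 15.01 and 14.94 in the exercised WT mice and 14.95, 15.04 and 14.98 in the KE mice. WT replicate 1 was the lowest mouse, and exercised WT mice lay above all WT mice by 0.12 ± 0.06 (adjusted p = 0.254, limma). The other chaperones, Sdf2l1 and the lectins Calr and Canx, differed by no more than 0.13 on the log2 scale, the value of Sdf2l1 in KE versus KO being -0.13 ± 0.09.

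The oxidoreductases form and rearrange disulfide bonds. Pdia6, which also attenuates IRE1 signalling, read 14.98, 14.95 and 14.91 in the WT mice, 14.89, 15.12 and 15.12 in the KO mice, 15.10, 15.13 and 15.15 in the exercised WT mice and 15.09, 15.09 and 15.00 in the KE mice. All exercised WT mice lay above all WT mice, by 0.18 ± 0.07 (adjusted p = 0.136, limma), and KO replicates 2 and 3, both at 15.12, lay within the exercised WT and KE range. The blocked difference was 0.07 ± 0.11. Pdia4 read 9.53, 9.47 and 9.59 in the WT mice, 9.55, 9.50 and 9.72 in the KO mice, 9.48, 9.53 and 9.30 in the exercised WT mice and 9.56, 9.67 and 9.57 in the KE mice. The KE mice lay above all exercised WT mice at 0.16 ± 0.08 (adjusted p = 0.759, limma). Pdia3 was singled out after its values were seen: Exercised WT replicate 2 read 10.35 where the other 11 mice lay between 10.98 and 11.35, and both of its probes were low in that mouse (8.91 and 11.78). Sec61b, a subunit of the channel through which new proteins enter the reticulum, read 13.61, 13.54 and 13.56 in the WT mice, 13.58, 13.64 and 13.51 in the KO mice, 13.50, 13.44 and 13.35 in the exercised WT mice and 13.56, 13.47 and 13.47 in the KE mice. The exercised WT mice lay below the WT mice by -0.14 ± 0.06 (adjusted p = 0.155, limma), and by -0.04 ± 0.09 in the blocked fit.

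**Figure D3:**
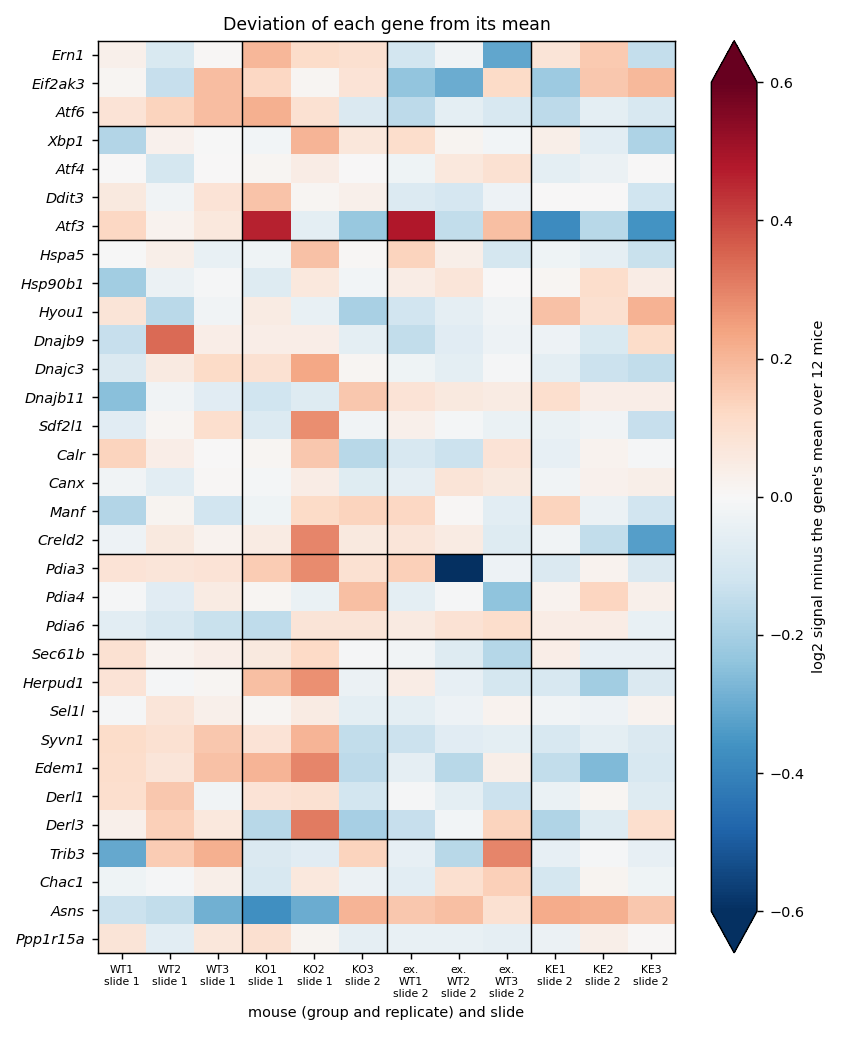
Deviation of each gene's log2 signal from its mean over 12 mice (colour, red above and blue below), with genes in rows grouped by role and mice in columns with their slide. KO replicate 2 is the reddest column of the KO mice, being the highest KO mouse in 20 of 32 genes, and the degradation gene Syvn1 turns from red on slide 1 to blue on slide 2.

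Degradation factors remove proteins that fail to fold. Herpud1 encodes a membrane protein that organises the degradation complex and had the smallest unadjusted p of the 32 in KE versus KO. Its signals were 11.77, 11.68 and 11.70 in the WT mice, 11.87, 11.96 and 11.65 in the KO mice, 11.73, 11.64 and 11.58 in the exercised WT mice and 11.59, 11.48 and 11.60 in the KE mice. All KE mice lay below all KO mice, by -0.27 ± 0.08 (a ratio of 0.831, adjusted p = 0.156, limma). Both probes were lower, by -0.18 and -0.36. KO replicate 3 was the nearest KO mouse, at 11.65, and the blocked difference was -0.09 ± 0.08. In that fit KO lay above WT by 0.20 ± 0.06 (adjusted p = 0.761, limma) and the interaction was -0.29 ± 0.09 (adjusted p = 0.318, limma).

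Syvn1 encodes the ubiquitin ligase HRD1. It read 14.23, 14.21 and 14.28 in the WT mice, 14.20, 14.32 and 13.97 in the KO mice, 13.99, 14.05 and 14.06 in the exercised WT mice and 14.02, 14.06 and 14.03 in the KE mice. All 5 mice on slide 1 lay at 14.20 or above, and all 7 on slide 2, KO replicate 3 included, lay at 14.06 or below. Exercised WT versus WT was -0.21 ± 0.08 (adjusted p = 0.144, limma), and 0.08 ± 0.08 under the slide block. Derl1, a component of the export channel, read 9.09, 9.15 and 8.97 in the WT mice, 9.07, 9.08 and 8.88 in the KO mice, 8.98, 8.93 and 8.86 in the exercised WT mice and 8.95, 9.00 and 8.91 in the KE mice. Its exercised WT versus WT difference was -0.15 ± 0.07 (adjusted p = 0.216, limma), and 0.05 ± 0.10 in the blocked fit. Between KE and exercised WT mice the Derl1 difference was 0.03 ± 0.07. Edem1, a lectin that hands glycoproteins to degradation, was singled out after its values were seen, with 8.13, 8.10 and 8.20 in the WT mice, 8.23, 8.32 and 7.87 in the KO mice, 7.97, 7.86 and 8.06 in the exercised WT mice and 7.88, 7.76 and 7.93 in the KE mice. KE versus KO was -0.28 ± 0.11 (adjusted p = 0.199, limma), KO replicate 3 lay among the KE mice, and the value was -0.02 ± 0.09 with the slide as a block. Sel1l, the partner of HRD1, had 2 used probes that parted: that at chr12:93044483-93044528 (mm9) read 9.00 to 9.10 on slide 1 and 8.52 to 8.71 on slide 2, and that at chr12:93045073-93045132 read 13.51 to 13.67 and 13.87 to 13.92. Their mean ran only from 11.21 to 11.34. Derl3 differed by no more than 0.10 in any pair of groups.

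Stress targets of the PERK and ATF4 branch close the list. Asns encodes asparagine synthetase. Averaged over 2 probes it read 11.57, 11.55 and 11.41 in the WT mice, 11.33, 11.40 and 11.90 in the KO mice, 11.86, 11.88 and 11.79 in the exercised WT mice and 11.92, 11.91 and 11.86 in the KE mice. Exercised WT mice lay above all WT mice by 0.33 ± 0.13 (adjusted p = 0.144, limma), and KE versus KO was 0.35 ± 0.13 (adjusted p = 0.188, limma), with KO replicate 3 at 11.90 inside the KE range. The difference came from 1 probe, at chr6:7626110-7626255 (mm9, minus strand), which read 9.15 to 9.57 on slide 1 and 10.06 to 10.18 on slide 2. The other Asns probe, at chr6:7625171-7625228, differed by 0.00 in exercised WT versus WT and 0.14 in KE versus KO. In the blocked fit the gene values were -0.20 ± 0.10 and 0.00 ± 0.08.

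Chac1, a glutathione-degrading enzyme, read 11.05, 11.07 and 11.11 in the WT mice, 10.98, 11.14 and 11.04 in the KO mice, 11.01, 11.17 and 11.22 in the exercised WT mice and 10.97, 11.09 and 11.05 in the KE mice. These groups overlapped, and its largest difference was -0.10 ± 0.07 in KE versus exercised WT. Trib3, a pseudokinase that inhibits ATF4 activity, varied from 7.56 to 8.16 with no group apart, and Ppp1r15a, which reverses eIF2alpha phosphorylation, differed by no more than 0.07 between groups.

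**Figure D4:**
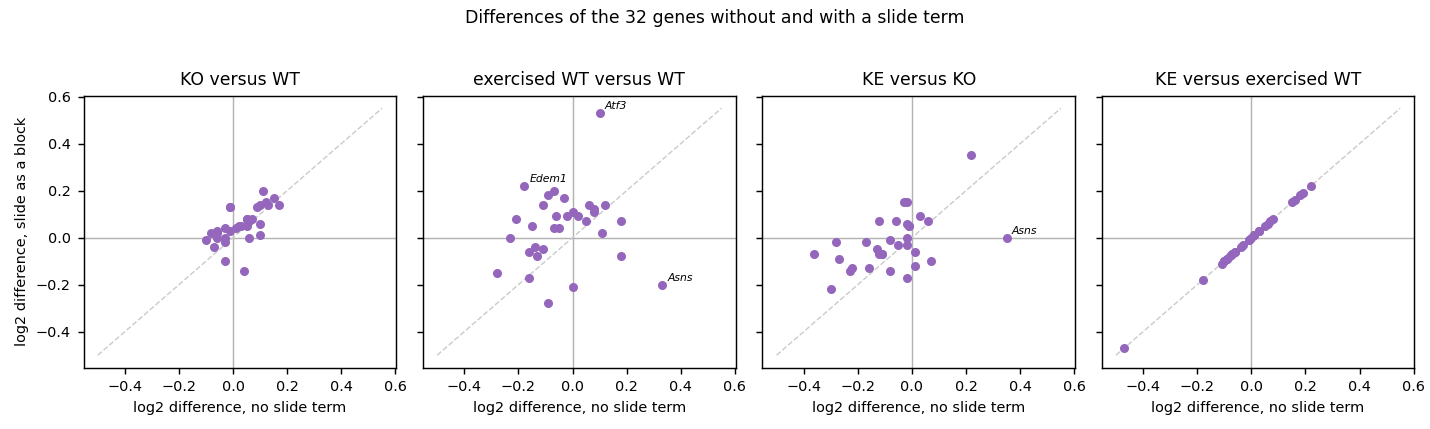
Log2 difference of each of the 32 genes without a slide term (x axis) and with the slide as a block (y axis) in 4 comparisons, with a dashed line of equality and names where the values differ by over 0.3. KE versus exercised WT lies on the line, since both groups were on slide 2, whereas 15 of the 32 genes change sign in exercised WT versus WT.

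Much of what separated exercised from untrained mice in these genes could not be told apart from the slide. A slide block, which rests on KO replicate 3 against the other KO mice, was added to the fit, and the sign changed in 11 of the 32 genes for KO against WT, 11 for KE against KO, 15 for exercised WT against WT, 0 for KE against exercised WT and 5 for the interaction. Over all genes the sign changed in 26.9%, 36.7%, 50.1%, 0% and 17.2%. Unadjusted p under 0.05 in the blocked fit was found for 2 genes in KO versus WT (Herpud1 and Asns), where 5.88% of all genes passed, and for 1 in KE versus KO (Hyou1), where 7.84% passed. It was found for 1 gene in exercised WT versus WT (Pdia4, -0.28 ± 0.12), where 6.01% passed, and for 3 in KE versus exercised WT (Hyou1, Atf3 and Pdia4), where 10.1% passed. For the interaction 6 passed, where 10.7% of all genes did: Herpud1, Creld2, Atf3, Edem1 (-0.24 ± 0.10) and Dnajc3 (-0.21 ± 0.09) on the lower side and Asns (0.20 ± 0.08) on the higher side. None of the 32 had an adjusted p under 0.05 in the blocked fit.

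Single KO mice stood apart in some genes. KO replicate 2 was the highest KO mouse in 20 of the 32 genes (62.5%), against 40.0% of all genes. KO replicate 3 lay below both other KO mice in 18 of the 32 (56.2%) and above both in 5 (15.6%), against 50.8% and 30.5% of all genes. Without KO replicate 3, the slides and the exercise groups coincided among knockout mice, and KE versus KO then gave 7 of the 32 genes past the adjusted threshold, where 21.1% of all genes did. These were Asns at 0.53 and, on the lower side, Edem1 at -0.42, Herpud1 at -0.36, Dnajc3 at -0.27, Atf6 at -0.25, Syvn1 at -0.22 and Creld2 at -0.34. In exercised WT versus WT, whose own mice were the same as before, 3 passed (Asns, Atf6 and Syvn1), where 16.0% of all genes did.

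Genes were also grouped by their upstream motifs. The 10 genes with ERSE or ERSE-II had median differences of 0.06, -0.08, -0.03 and -0.05 in the 4 pairs of groups, in the order given above, and blocked medians of 0.07, 0.00, 0.12 and -0.05. Hence the median reversed between exercised WT and WT mice. The 4 genes with CARE had medians of 0.01, -0.14, 0.08 and -0.09, and blocked medians of 0.05, -0.04, 0.14 and -0.09. The 15 genes with none of the 4 motifs had medians of 0.05, -0.05, -0.09 and 0.03, and blocked medians of 0.05, -0.05, -0.05 and 0.03. Of the 5 genes with a low unadjusted p on the lower side of KE versus KO, 3 (Herpud1, Creld2 and Dnajc3) held ERSE or ERSE-II. Among all the genes with a window, 10 of 28 did so. Of the other low genes, Edem1 held neither motif and Atf6 had no window. The windows of Herpud1, Creld2 and Dnajc3 are printed above. Among the 4 CARE genes, Asns alone had an unadjusted p under 0.05 on the higher side, for exercised against untrained mice of either genotype. Another CARE gene, Herpud1, was past that p on the lower side between KE and KO mice. The higher Asns values came mainly from 1 probe that parted by slide, as given above. With the slide as a block, Asns was at -0.20 for exercised WT against WT mice and at 0.00 between KE and KO mice. The part of CARE in these values was not tested.

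A wider list of 107 genes of the same pathways was read beside the 32, with 103 tested and no adjusted p under 0.05 in any comparison. In KO versus WT, 2 of the 103 (1.94%, against 2.63% of all genes) had an unadjusted p under 0.05 on the higher side and 0 on the lower side (against 2.69%): Sec61a1, the channel of the reticulum (0.21 ± 0.06), and Kdelr3, a retrieval receptor (0.48 ± 0.16). In KE versus KO, 3 were higher (2.91%, against 7.40% of all genes) and 14 lower (13.6%, against 12.3%). In the blocked fit 4 of the 103 were past that p, where 7.84% of all genes were. Without the block the amino acid transporter Slc7a5 was higher at 0.53 ± 0.16, and Srprb, a subunit of the signal recognition particle receptor, and Uggt1, the folding sensor for glycoproteins, were lower at -0.21 ± 0.05 and -0.16 ± 0.05. In exercised WT versus WT, 6 were higher (5.83%, against 9.86%) and 17 lower (16.5%, against 15.9%), with 5 of the 103 past that p in the blocked fit, where 6.01% of all genes were. Slc7a5 was at 0.57 ± 0.16 and Txndc5, an oxidoreductase, at 0.20 ± 0.06 on the higher side, and the translocon-associated subunits Ssr1 and Ssr2 were at -0.19 ± 0.05 and -0.22 ± 0.05 on the lower side. After blocking by slide, Slc7a5 was at 0.17 in KE versus KO and 0.02 between exercised WT and WT mice, while Ssr1 was at -0.21 between the latter groups. Between KE and exercised WT mice, 4 were higher (3.88%, against 2.79%), among them the serine synthesis enzyme Phgdh (0.14 ± 0.05) and the leucyl-tRNA synthetase Lars (0.13 ± 0.05), and 2 were lower (1.94%, against 3.96%), Uggt1 (-0.12 ± 0.05) and the conjugating enzyme Ube2j1 (-0.12 ± 0.05). The medians of the 103 were -0.01, -0.06, -0.07 and 0.00 in these 4 comparisons, each within 0.02 of the median of all genes. In the blocked fit 4 of the 103 had an unadjusted p under 0.05 in KO versus WT, against 5.88% of all genes. Blocked counts were 8 in KE versus exercised WT, against 10.1%, and 7 for the interaction, against 10.7%.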

How the data were processed

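Gene expression in the hypothalamus of 12 mice was measured on 1-color Agilent arrays. Scanner files that the authors deposited hold the intensity of each spot, background-subtracted within the array by Feature Extraction 10.7.1.1 (per the labels). The authors also deposited a table of quantile-normalized log2 values from GeneSpring, and tables for single comparisons with their fold changes and p-values, whose 24 columns of values per sample were not used. From the scanner output, control and outlier spots were left out, log2 intensity was normalized by quantiles, and replicate spots were averaged. A probe was kept where all 3 mice of any group were well above background (35230 of 56605), and kept probes were averaged per gene symbol, giving 18266 genes. The 32 genes had 60 probes, of which 55 were kept. No spot of these genes was left out. With several probes in 18 genes, the probes differed in sign in 4 to 8 genes per comparison.

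A model of the 4 groups was fitted with limma 3.58.1 (R 4.3.3), and p-values were adjusted by the Benjamini-Hochberg method over all genes. Differences are given ± SE. Precision is limited by the number of arrays, 3 in each group. Nothing in the labels says more of how separate the mice were, so p-values measure the spread between these mice. Slides were read from the scanner output. The fit was tested on simulated data. The genes, the wider list and the motifs were chosen with earlier results of these data known. The rule for values per mouse took the sensors, Hspa5, Xbp1, Atf4, Ddit3 and, in each comparison, the 3 genes of smallest unadjusted p in each direction; in the wider list the 2 of smallest unadjusted p a direction are named where that p was under 0.05, for the 4 pairs of groups, and a gene that this rule would name is not reported here. Alternatives, 1 choice at a time, were 75th percentile scaling, normexp with an offset of 50, the authors' table, other detection filters, the slide or replicate number as a block, fits within slides, the methods' t-test, the brightest probe, outlier spots kept and each array left out. Figures were drawn with matplotlib.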

Additional observations from a re-analysis of the deposited data

How the results depend on the processing

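None of the 32 genes passed an adjusted p of 0.05 under any alternative that kept all 12 arrays. Leaving out 1 array at a time gave 0 to 7 genes in KE versus KO and 0 to 3 in exercised WT versus WT, and the higher count in each came without KO replicate 3. There 21.1% and 16.0% of all genes passed. Counts of the 32 genes with an unadjusted p under 0.05 varied more. In KO versus WT the count was 0, but 1 with normexp background correction, 2 under the slide block, 1 within slide 1, 1 with the methods' t-test and 0 to 2 with an array left out. The share over all genes was 5.32%, and in those settings 4.77%, 5.88%, 4.66%, 3.61% and 4.29% to 8.56%. In KE versus KO it was 7, but 1 with the slide as a block, 3 with the methods' t-test and 4 to 9 with an array left out. Over all genes the share was 19.7%, and in those settings 7.84%, 12.2% and 10.5% to 36.4%. In exercised WT versus WT it was 5, but 3 with 75th percentile scaling, 9 with normexp, 1 with the slide as a block and 3 to 8 with an array left out. The share over all genes was 25.8%, and in those settings 26.1%, 28.3%, 6.01% and 17.7% to 33.5%. In KE versus exercised WT it was 2, but 4 with 75th percentile scaling, 4 with normexp, 1 with the methods' t-test and 1 to 4 with an array left out. Over all genes the share was 6.76%, and in those settings 7.2%, 8.74%, 10.5% and 4.25% to 10.1%. For the interaction it was 2, but 1 with detection on all 12 arrays, 6 with the slide as a block and 0 to 6 with an array left out. The share over all genes was 7.92%, and in those settings 7.74%, 10.7% and 5.45% to 10.7%. The median of the 32 in exercised WT versus WT, -0.05, became 0.07 under the slide block and -0.01 with the brightest probe. In KE versus KO it ran from -0.11 to -0.04 with an array left out. For the interaction, at -0.01, it was 0.01 with 75th percentile scaling and ran from -0.04 to 0.00 with an array left out. Asns changed sign with the slide as a block in KE versus KO (0.00) and exercised WT versus WT (-0.20) and within slide 2 in KE versus KO (0.00), and Syvn1 did so in exercised WT versus WT with the slide as a block (0.08). The cause was not tested.

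The groups share replicate numbers, but deviations of same-numbered mice correlated between -0.18 and 0.24, and only in exercised WT versus WT did every mouse correlate best with its own number, so the numbers were not taken as pairing. With the replicate number as a block the interaction count was 1 in place of 2, with 6 genes in KE versus KO, 6 in exercised WT versus WT, 0 in KO versus WT and 2 in KE versus exercised WT, and no gene had an adjusted p under 0.05. In the same order, the share over all genes was 8.57%, 20%, 25.8%, 6.01% and 7%. Within-slide fits of exercised WT versus WT could not be run, as the groups share no slide.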
